A study of Mus musculus with 24 samples.

Results

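The genes described here are the Nduf genes of the mouse, which encode subunits and assembly factors of respiratory complex I, followed through 3 stages of diaphragm development. They were chosen by name: every gene whose symbol starts with Nduf and that had a probe set of its own on the array, represented by the probe set with the highest mean where it had several. This gave 43 genes of 19351. Normally developing C57BL/6J mouse embryos were sectioned, the tissue was cut out by laser capture, and its RNA was hybridised to whole-transcript Affymetrix arrays (Mouse Gene 1.0 ST). The 3 groups of 8 arrays each were the pleuroperitoneal folds, embryonic precursors of the diaphragm, at E11.5 and at E12.5 (E, embryonic day), and the muscularised diaphragm at E16.5. No embryo carried a mutation or was treated, as far as the labels say. The labels do not say which embryo an array came from or whether embryos were pooled, so the p-values measure the spread between these samples. All values are log2 intensities, a difference of 1 is a 2-fold change, errors of means are SD over 8 arrays and errors of changes are standard errors.

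Complex I, NADH:ubiquinone oxidoreductase, is the entry point of the mitochondrial respiratory chain. Its peripheral arm reaches into the matrix, takes electrons from NADH and passes them along iron-sulfur clusters to ubiquinone, and its membrane arm pumps protons. The core proteins of the membrane arm are encoded by mitochondrial DNA, whereas the catalytic core of the peripheral arm and all supernumerary subunits are nuclear, and most of these carry Nduf names. Dedicated assembly factors join the modules and are not part of the finished enzyme. The diaphragm, as a muscle of constant use, depends on oxidative metabolism.

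Complex I genes were higher in the E16.5 diaphragm than in the folds, almost throughout the family and by less than 3-fold each. Against E11.5, 40 of 43 Nduf genes rose, 0 fell and 3 missed the threshold (limma, Benjamini-Hochberg adjusted p under 0.05 over all genes), where 13.8% of all genes were called higher and 19.6% lower. Against E12.5, 38 rose, 1 fell and 4 missed it, where 11.49% of all genes were called higher and 15.6% lower. From E11.5 to E12.5 limma called 0 higher and 0 lower among the 43, against 0.331% of all genes higher and 0.0568% lower (unadjusted p under 0.05: 6 Nduf genes higher and 0 lower, and 1214 and 1575 of all genes). The median change of the 43 was 0.88 for E16.5 minus E11.5, 0.70 for E16.5 minus E12.5 and 0.16 for E12.5 minus E11.5, while that of all genes was -0.08, -0.02 and -0.03. Both comparisons with E16.5 use the same E16.5 arrays, so they are not independent of each other.

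**Figure D1:**
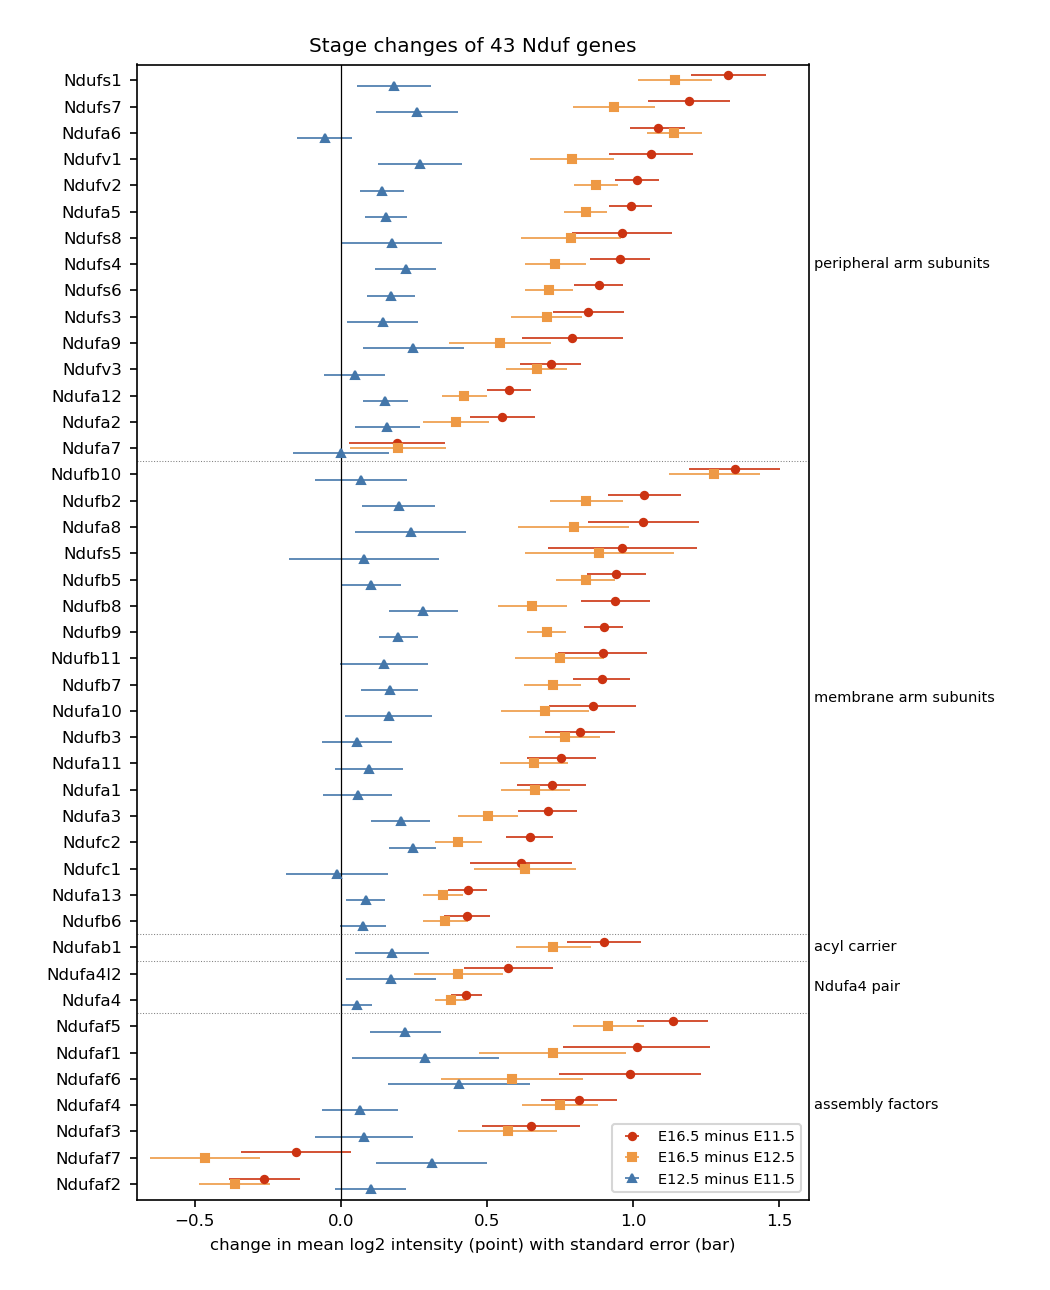
Change in mean log2 intensity of each of the 43 Nduf genes (points) with its standard error (bars), for E16.5 minus E11.5 (circles), E16.5 minus E12.5 (squares) and E12.5 minus E11.5 (triangles), grouped by role and sorted within each role by E16.5 minus E11.5. The first 2 lie right of 0 for all genes but Ndufaf7 and Ndufaf2, from 0.19 (Ndufa7) up to 1.35 (Ndufb10), and the triangles lie between -0.06 and 0.41.

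The size of the rise was moderate. Of the 40 genes higher at E16.5 than at E11.5, 34 rose by 1.5-fold or more and 10 by 2-fold or more, with a median of 1.86-fold and a range of 1.35-fold (Ndufa4) to 2.54-fold (Ndufb10). Against E12.5, 29 of the 38 rose by 1.5-fold or more and 3 by 2-fold or more. In 27 genes all 8 E16.5 arrays lay above all 8 E11.5 arrays (5.22% of all genes), and in 26 all lay above the E12.5 arrays (4.69% of all genes). In 0 Nduf genes did all E16.5 arrays lie below those of E11.5 (3.86% of all genes) or of E12.5 (5.4%). Likewise 0 had all E12.5 arrays above (0.093% of all genes) or below (0.0362%) those of E11.5. By mean level, 38 of the 43 stood in the order E11.5 below E12.5 below E16.5. The step from E11.5 to E12.5 was called in 0 of them, and the share of all genes in this order was not counted. At the dim end, 42 genes had no array below that array's lower quartile over genes (6.40 to 6.64). The exception, Ndufaf6, lay below it in 2 of 8 E11.5 arrays. Ndufa4l2, the dimmest of the 43 by mean at every stage, lay close to that quartile at E11.5 (6.62 to 7.12). Ndufa4 was the brightest by mean at every stage.

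The tissue labels were checked against markers. At E16.5 all 22 sarcomere markers rose against E11.5 (median change 4.05), among them Myh8, a perinatal myosin heavy chain (5.47 ± 0.43), and Tnnt3, fast troponin T (5.43 ± 0.42). Tnnt3 was among the 20 brightest genes in all 8 E16.5 arrays and Myh8 in 3, so the size of both changes is uncertain. The list's mean per array was 8.31 to 9.71 at E11.5, 8.44 to 11.41 at E12.5 and 12.34 to 12.87 at E16.5. Of 12 markers of fold mesenchyme, 9 fell and 1 rose against E11.5, with Wt1, a transcription factor of mesothelium and fold, at -1.60 ± 0.13. Liver markers moved with stage too: 12 of 13 rose against E11.5, all but Hnf4a, and their mean per array was 6.78 to 7.04 at E11.5, 7.89 to 11.89 at E12.5 and 9.67 to 11.65 at E16.5. Cell cycle genes moved the other way, with 23 of 24 lower at E16.5 than at E11.5 and 0 higher. Of 9 red cell markers 3 fell, all embryonic globins, and 1 rose. Of 10 endothelial markers, 6 rose and 0 fell against E11.5, and 9 rose and 0 fell against E12.5. Of 9 neuron markers 2 fell and 0 rose, and of 10 cardiomyocyte markers 3 rose and 2 fell, against E11.5. Muscle, liver, endothelial, embryonic globin and proliferation transcripts thus changed over the same interval as the Nduf genes, and their part in the Nduf result was not tested. In such bulk samples more cells of a type and more RNA per cell cannot be told apart.

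Subunits of the peripheral arm rose in 14 of 15 cases against E11.5 and again in 14 of 15 against E12.5 (medians 0.96 and 0.73). The catalytic core carries the electron path, and the 6 core genes measured rose in both comparisons. Ndufs1, the largest core subunit and the holder of several iron-sulfur clusters, had a lowest, median and highest array of 9.40, 9.73 and 10.14 at E11.5, of 9.80, 9.91 and 10.29 at E12.5, and of 10.69, 11.06 and 11.54 at E16.5. Every E16.5 array was above every fold array, while the fold stages overlapped. The change was 1.33 ± 0.13 against E11.5 (adjusted p = 7.87e-09) and 1.14 ± 0.13 against E12.5 (adjusted p = 1.31e-07), the largest in this arm.

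Ndufs7 holds the last iron-sulfur cluster before ubiquinone. Its arrays ran from 8.82 over a median of 9.08 to 9.27 at E11.5, from 9.08 over 9.32 to 9.59 at E12.5, and from 9.80 over 10.14 to 10.84 at E16.5. The E16.5 arrays again stood clear of both fold stages, at 1.19 ± 0.14 above E11.5 (adjusted p = 2.61e-07). Ndufv1 binds FMN and oxidises NADH. It ran from 8.84 over 9.11 to 9.68 at E11.5, from 9.26 over 9.39 to 9.86 at E12.5, and from 9.69 over 10.30 to 10.70 at E16.5, so that E16.5 cleared E11.5 but overlapped E12.5. Its partner in the NADH-binding part, Ndufv2, was tighter, at 10.31 to 10.73 (median 10.56), 10.56 to 10.78 (10.65) and 11.21 to 11.78 (11.57) in stage order, with a change of 1.01 ± 0.08 against E11.5 (adjusted p = 1.12e-10). Ndufs3, a scaffold of the ubiquinone-reducing part, had 9.88 to 10.71 (median 10.54) at E11.5, 10.40 to 10.73 (10.65) at E12.5 and 10.92 to 11.79 (11.32) at E16.5. Ndufs8, which carries a pair of iron-sulfur clusters, had 9.25 to 10.26 (median 9.58) at E11.5, 9.47 to 10.27 (9.78) at E12.5 and 10.01 to 11.05 (10.72) at E16.5, the 1 core gene whose E16.5 arrays overlapped both folds. It still rose, by 0.79 ± 0.17 against E12.5 (adjusted p = 0.000914).

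Among the supernumerary subunits of the peripheral arm, Ndufa6, a small LYR-motif protein that binds the acyl carrier, had nearly the same level in both fold stages. It ran from 9.92 over 10.18 to 10.32 at E11.5 and from 9.82 over 10.13 to 10.28 at E12.5, and lay at 10.82 to 11.54 (median 11.24) at E16.5. E16.5 was 1.14 ± 0.09 above E12.5 (adjusted p = 9.56e-10). Ndufa5 (0.99 ± 0.07 against E11.5), Ndufs4, whose loss in mice gives a model of Leigh syndrome (0.96 ± 0.10), Ndufs6 (0.88 ± 0.08) and Ndufa9 (0.79 ± 0.17) lay between. The smaller rises were those of Ndufv3 (0.72 ± 0.11), Ndufa12 (0.57 ± 0.08) and Ndufa2 (0.55 ± 0.11).

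Ndufa7, a supernumerary subunit of the same arm, was its 1 gene past the threshold in neither comparison. It had 9.36 to 10.97 (median 9.74) at E11.5, 9.60 to 10.11 (median 9.84) at E12.5 and 9.61 to 10.42 (median 10.04) at E16.5, and all 3 stages overlapped. The change was 0.19 ± 0.16 against E11.5 (adjusted p = 0.382) and likewise 0.19 ± 0.16 against E12.5 (adjusted p = 0.448). A single array, E11.5 replicate 5, stood at 10.97, with the next at 10.01. Without it the change against E11.5 was 0.35 and passed (adjusted p = 0.0217).

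Membrane arm subunits rose in 18 of 18 cases in both comparisons with E16.5 (medians 0.88 against E11.5 and 0.70 against E12.5). Ndufb10, a subunit on the face toward the intermembrane space, rose most of all 43 genes. Its arrays lay at 10.25, 10.59 and 11.13 (lowest, median, highest) at E11.5, at 10.30, 10.65 and 11.12 at E12.5, and at 11.52, 11.99 and 12.41 at E16.5. The fold stages covered nearly the same range and E16.5 stood above both, by 1.35 ± 0.16 against E11.5 (adjusted p = 2.27e-07) and 1.28 ± 0.16 against E12.5 (adjusted p = 6.88e-07). Ndufb2, a small subunit of the distal membrane arm, had 8.87 to 9.72 (median 9.52), 9.23 to 9.91 (9.72) and 10.10 to 10.95 (10.46) in stage order, again without overlap of E16.5 with the folds. Ndufa8, a twin-cysteine-motif protein of the intermembrane space side, had 9.28 to 10.23 (9.74), 9.84 to 10.18 (10.09) and 10.15 to 11.74 (10.82), with overlap of all stages and the wide spread of 0.61 (SD) at E16.5. Its change against E11.5 was 1.03 ± 0.19 (adjusted p = 0.000126).

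The other membrane arm subunits rose by 0.43 to 0.96 against E11.5. Ndufs5 had the highest of these values and the widest spread of the family at E16.5 (0.96 ± 0.26, SD 0.62), and Ndufb9 a value close to it with far less error (0.90 ± 0.07). Ndufb6 (0.43 ± 0.08) and Ndufa13, also known as the cell death regulator Grim19 (0.43 ± 0.07), were at the low end, although all their E16.5 arrays lay above all fold arrays. Ndufc1 had -0.01 ± 0.17 for E12.5 minus E11.5 and rose against both folds (0.62 ± 0.17 and 0.63 ± 0.17). Ndufab1, the mitochondrial acyl carrier protein, which sits in both arms and serves lipoate and iron-sulfur cluster synthesis besides, rose by 0.90 ± 0.13 against E11.5 and 0.73 ± 0.13 against E12.5.

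**Figure D2:**
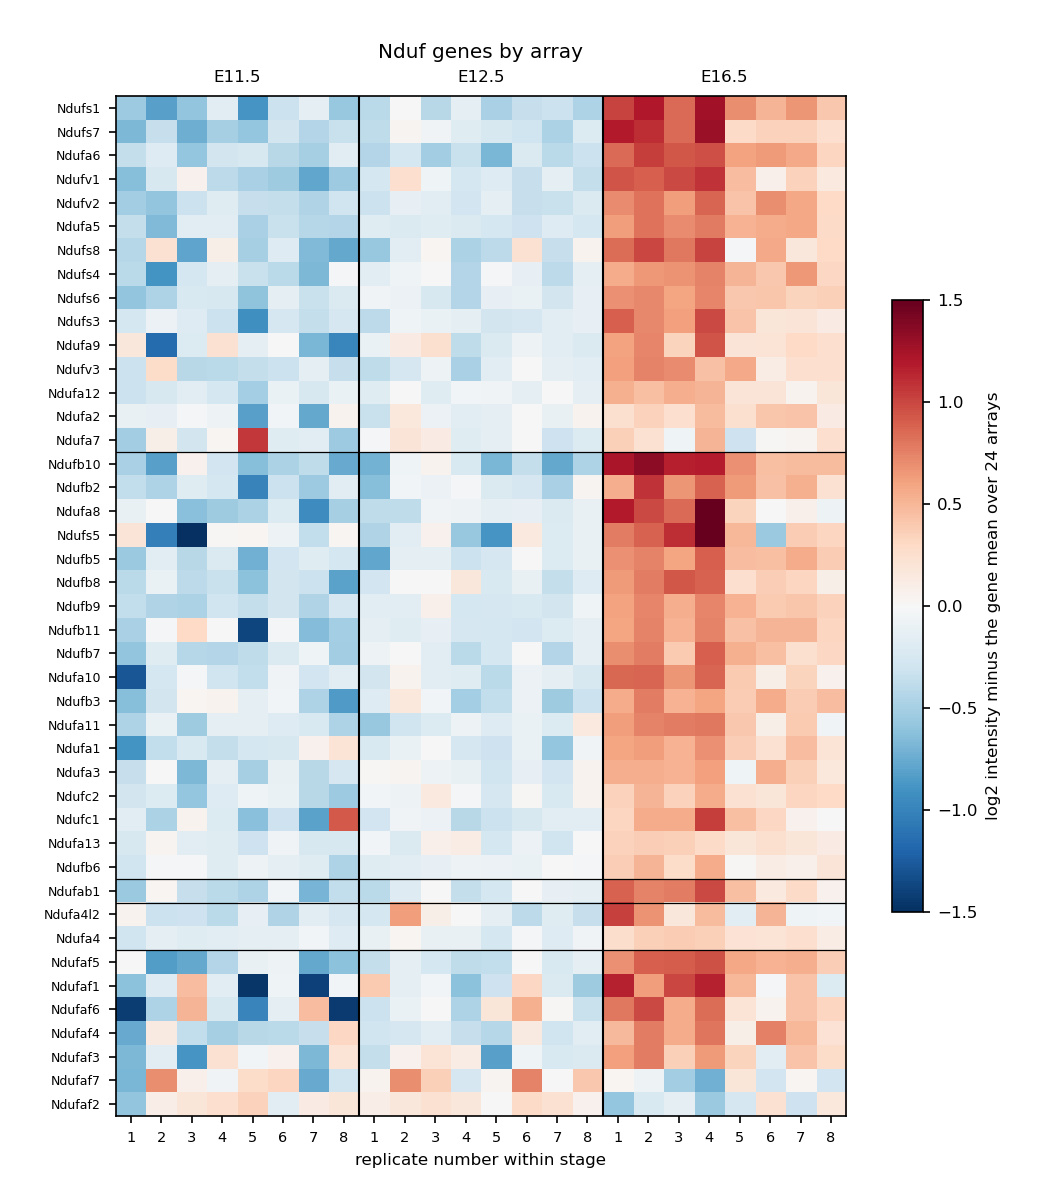
Each cell is the log2 intensity of a Nduf gene (rows, in the order of the plot of changes) in 1 array (columns, by stage and replicate number) minus that gene's mean over the 24 arrays. E16.5 columns are mostly above the gene means and fold columns below, and replicates 1 to 4 of E16.5 are higher than replicates 5 to 8 in most rows. The last 2 rows do not share this pattern: Ndufaf2 is mostly below its mean at E16.5, and Ndufaf7 is mixed.

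Ndufa4 bears the family name but was later assigned to cytochrome oxidase, and Ndufa4l2 is its paralog, known as a target of hypoxia-inducible factor. Ndufa4 was among the least variable members, at 12.59 to 12.85 (median 12.73) at E11.5, 12.62 to 12.91 (12.77) at E12.5 and 12.99 to 13.27 (13.14) at E16.5. All its E16.5 arrays lay above both folds, yet its rise of 0.43 ± 0.05 against E11.5 (adjusted p = 6.64e-07) was the smallest called. Ndufa4 also had the highest mean of the 43 genes at every stage, though it was among the 20 brightest genes in 0 arrays. Whether its brightness limits the size of this rise was not tested. Ndufa4l2 had 6.62 to 7.12 (6.79), 6.67 to 7.70 (6.90) and 6.92 to 8.10 (7.39), overlapping throughout. Its E11.5 arrays lay close to the lower quartile over genes (6.40 to 6.64), so the size of its rise is uncertain. Ndufa4l2 rose against E11.5 (0.57 ± 0.15, adjusted p = 0.00518) and had 0.40 ± 0.15 against E12.5 (adjusted p = 0.0535). That last value passed without E12.5 replicate 2 (0.50, adjusted p = 0.00828) or without E16.5 replicate 5 (0.47, 0.0235), 7 (0.46, 0.0316) or 8 (0.45, 0.0323).

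The assembly factors were the divided group. Of 7 measured, 5 rose against E11.5 and 0 fell, and 4 rose and 1 fell against E12.5. Ndufaf5, which hydroxylates an arginine of Ndufs7, had 8.44 to 9.28 (median 8.74) at E11.5, 8.89 to 9.28 (9.03) at E12.5 and 9.64 to 10.24 (9.91) at E16.5. It was the 1 assembly factor with E16.5 clear of both folds, at 1.14 ± 0.12 above E11.5 (adjusted p = 5.08e-08) and 0.92 ± 0.12 above E12.5 (adjusted p = 1.94e-06). Ndufaf3 and Ndufaf4 act together on the early ubiquinone-reducing module. They rose by 0.65 ± 0.17 and 0.82 ± 0.13 against E11.5 and by 0.57 ± 0.17 and 0.75 ± 0.13 against E12.5.

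Ndufaf1, a factor for the membrane arm, rose by 1.01 ± 0.25 against E11.5 (adjusted p = 0.00274) and 0.72 ± 0.25 against E12.5 (adjusted p = 0.0328). The call against E12.5 ended without any 1 of E12.5 replicates 4, 5, 7 and 8 or of E16.5 replicates 1, 3 and 4 (0.64 to 0.71, adjusted p 0.0509 to 0.0714). Ndufaf6, which acts early on the module around ND1, rose against E11.5 (0.99 ± 0.24, adjusted p = 0.00254) and had 0.59 ± 0.24 against E12.5 (adjusted p = 0.0791), or 0.67 (adjusted p = 0.0497) without E12.5 replicate 6. Its E11.5 arrays had the widest spread of the family at that stage (SD 0.77).

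Ndufaf2 and Ndufaf7 did not share the rise. Ndufaf2 is a paralog of the subunit Ndufa12 and leaves the complex when Ndufa12 takes its place. It had 10.88 to 11.82 (median 11.62) at E11.5, 11.46 to 11.76 (11.64) at E12.5 and 10.89 to 11.70 (11.23) at E16.5. The stages overlapped, with the E16.5 median below both others. Ndufaf2 fell by 0.36 against E12.5 (standard error 0.12, adjusted p = 0.0254), the 1 fall in the family, and had -0.26 ± 0.12 against E11.5 (adjusted p = 0.0963). The fall ended without E16.5 replicate 1 (-0.31, adjusted p = 0.0616) or 4 (-0.32, 0.0601), and the value against E11.5 passed without E11.5 replicate 1 (-0.36, 0.0107) or E16.5 replicate 6 (-0.33, 0.0358) or 8 (-0.32, 0.0479). Ndufa12, by contrast, rose in the same arrays (0.42 ± 0.08 against E12.5, adjusted p = 0.000115).

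Ndufaf7, a methyltransferase needed for complex I assembly, had 7.97 to 9.42 (8.73), 8.46 to 9.47 (8.93) and 7.99 to 8.90 (8.54) in stage order, with all stages overlapping. Its change was -0.47 ± 0.19 against E12.5 (adjusted p = 0.0720) and -0.15 ± 0.19 against E11.5 (adjusted p = 0.555). The value against E12.5 passed without E11.5 replicate 2 (-0.47, 0.0492) or E12.5 replicate 4 (-0.54, 0.0391). Set against the mean of the other 42 genes in the same array, Ndufaf2 stood 0.71 to 1.63 above at E11.5, 1.07 to 1.34 above at E12.5 and between -0.49 and 0.81 at E16.5. Ndufaf7 stood between -2.31 and -0.98 at E11.5, between -1.99 and -1.13 at E12.5 and between -3.48 and -2.11 at E16.5. For both genes the gaps at E16.5 lay below all those at E12.5. The mean over all Nduf genes itself rose from 10.47 at E12.5 to 11.11 at E16.5. The gap of a gene with an unchanged level would therefore also fall, so a lower gap does not show that the gene itself fell. How many other Nduf genes had such separate gaps was not counted. Both genes were singled out for their values, so no test is given for these gaps.

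**Figure D3:**
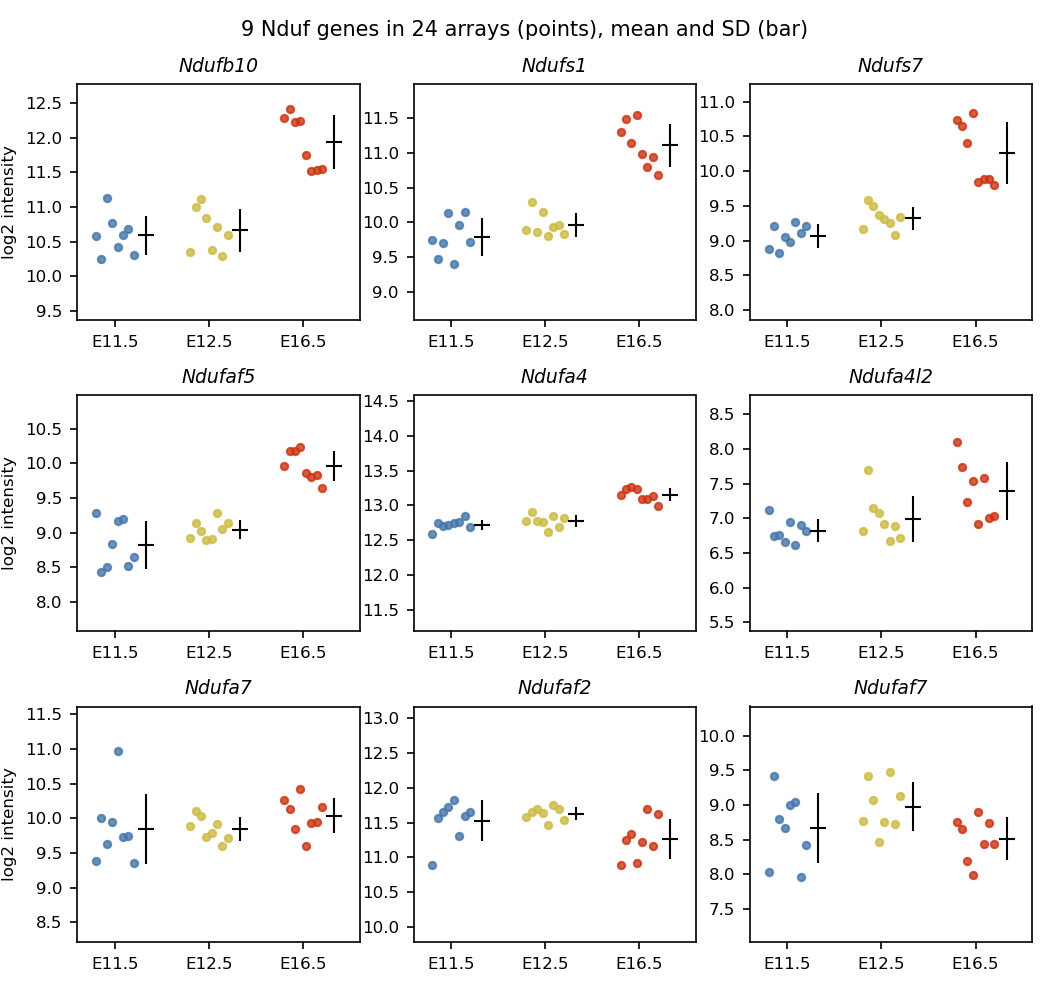
Log2 intensity of 9 Nduf genes in the 8 arrays of each stage (points) with mean and SD (bar to the right), each panel spanning the same height in log2 units. E16.5 stands clear of the folds for Ndufb10, Ndufs1, Ndufs7, Ndufaf5 and Ndufa4, overlaps them for Ndufa4l2 and Ndufa7, and has its median below both for Ndufaf2 and Ndufaf7.

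The promoters of the family were searched for the letters of 5 motifs of factors known to act on nuclear genes of mitochondria or on promoters in general. Windows of 250 bases before to 50 bases after the start of transcription came from RefSeq (GRCm38.p6) and were at hand for 38 of the 43 genes, 40 windows in all. Both strands were read, and the motifs may overlap. The motif of NRF1, a known activator of respiratory chain genes, was searched with 1 free base, and its matches are in capitals further on. It was in 9 member windows of 8 genes (22.5% of member windows) and in 4.60% of all 32851 windows. Ndufa5 has overlapping windows that hold the same match, which is counted in each. The YY1 motif was in 4 (10.0%, against 0.852%), GGGGCGGGG, the site of SP1, in 6 (15.0%, against 11.4%), AAGGTCA, the site of estrogen-related receptors, in 2 (5.0%, against 4.72%), and CCGGAAGT, the site of GABP, in 1 (2.5%, against 3.89%). A match is a string of letters and not a shown binding site, and the shares carry no test.

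The stretches that follow are shown because they hold an NRF1 match before the start site, in 6 genes. Up to 20 bases on either side are given, with the match in capitals. All 6 genes rose at E16.5, but so did 40 of the 43 Nduf genes against E11.5, so the rise does not set them apart. They read 5′ to 3′ on the strand of the gene, and lie at chr17:56717682-56717731 (Ndufa11, plus strand), chr6:24527687-24527736 (Ndufa5, minus), chr2:36049339-36049388 (Ndufa8, minus), chr4:24897950-24897999 (Ndufaf4, plus), chr4:123718255-123718304 (Ndufs5, minus) and chr13:73328483-73328518 (Ndufs6, minus).
Ndufa11: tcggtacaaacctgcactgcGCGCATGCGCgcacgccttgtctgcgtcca
Ndufa5: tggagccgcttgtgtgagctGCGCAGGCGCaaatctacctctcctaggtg
Ndufa8: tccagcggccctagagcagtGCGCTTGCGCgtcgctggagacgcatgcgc
Ndufaf4: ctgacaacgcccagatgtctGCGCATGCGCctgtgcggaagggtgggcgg
Ndufs5: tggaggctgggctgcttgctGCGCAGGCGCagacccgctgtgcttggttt
Ndufs6: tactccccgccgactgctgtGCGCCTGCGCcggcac

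The other 2 genes with a match, Ndufa6 and Ndufaf5, hold it after the start. These 8 genes rose by 0.75 to 1.14 against E11.5. For comparison, the 100 bases before the start are given for the gene that rose most and for the 2 assembly factors that did not rise. Their windows held no exact match to any of the 5 motifs, and the same was true of other genes that rose, such as Ndufb5 and Ndufv2. Near matches were not counted. A link between motif and rise was not tested. They lie at chr17:24724424-24724523 (Ndufb10, minus strand), chr13:108158626-108158725 (Ndufaf2, minus) and chr17:78937035-78937134 (Ndufaf7, plus).
Ndufb10: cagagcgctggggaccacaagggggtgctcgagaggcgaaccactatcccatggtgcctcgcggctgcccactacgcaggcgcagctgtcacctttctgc
Ndufaf2: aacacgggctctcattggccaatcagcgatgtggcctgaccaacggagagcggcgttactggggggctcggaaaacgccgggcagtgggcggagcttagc
Ndufaf7: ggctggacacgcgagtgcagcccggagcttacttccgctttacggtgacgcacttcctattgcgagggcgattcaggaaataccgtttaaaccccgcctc

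Transcripts of the factors themselves did not move as 1 group. Of 16 regulators of mitochondrial genes, 5 rose and 4 fell against E11.5 (median change 0.00). Ppargc1a, the coactivator PGC-1alpha, had 6.50 to 7.80 at E11.5, 7.25 to 8.43 at E12.5 and 10.66 to 11.45 at E16.5, a rise of 3.79 ± 0.20 (adjusted p = 1.70e-13), and its relative Ppargc1b rose by 1.08 ± 0.14. Esrrg, an estrogen-related receptor of oxidative muscle, rose by 1.45 ± 0.24. The other 2 rises were those of Ppara (1.07 ± 0.20) and Tfb1m (0.985 ± 0.288, adjusted p = 0.00992). Ppara lay below the lower quartile over genes in 8 E11.5 arrays, so the size of its rise is uncertain. Nrf1 fell by 0.44 against E11.5 (standard error 0.09, adjusted p = 0.000360), as did the coactivator Pprc1 by 0.73 (standard error 0.13), the GABP subunit gene Gabpb1 by 0.65 (standard error 0.15) and Yy1 by 0.31 (standard error 0.09, adjusted p = 0.0108). Gabpa, the DNA-binding subunit of GABP, had -0.14 ± 0.11 (adjusted p = 0.360).

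Complex I genes outside the Nduf name had a smaller median change. Of 21 listed, 14 had a probe set, and 9 rose and 0 fell against E11.5 (median change 0.39), against 4 and 1 at E16.5 relative to E12.5. All of the 14 but ND3 were assembly factors or helpers, while most of the Nduf genes were subunits. The 7 Nduf assembly factors had a median change of 0.815 against E11.5. ND3, a core subunit encoded by mitochondrial DNA, had 13.29 to 13.47 at E11.5, 13.27 to 13.44 at E12.5 and 13.57 to 13.67 at E16.5, above every fold array. It rose by 0.23 ± 0.04 against E11.5 (adjusted p = 0.000121). ND3 was among the 20 brightest genes in 8 E11.5, 7 E12.5 and 8 E16.5 arrays, so the size of this change was read near the top of the scale at all stages and is uncertain. Of the assembly factors and helpers, Tmem70 (1.06 ± 0.17), Ecsit (0.92 ± 0.20), Tmem126b (0.85 ± 0.26), Chchd4 (0.66 ± 0.16), Timmdc1 (0.56 ± 0.21), Aifm1 (0.54 ± 0.14), Dmac1 (0.41 ± 0.12) and Foxred1 (0.30 ± 0.12) rose against E11.5. Dmac2 (0.36 ± 0.29), Acad9 (-0.06 ± 0.12), Nubpl (-0.19 ± 0.10), Tmem186 (-0.19 ± 0.10) and Lyrm2 (-0.29 ± 0.14) were not past the threshold. Nubpl, which delivers iron-sulfur clusters to complex I, fell against E12.5 by 0.31 (standard error 0.10, adjusted p = 0.0256).

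The rest of the respiratory chain gave a like count. Of 42 genes of complexes II to V and cytochrome c, 41 rose and 0 fell in both comparisons with E16.5 (medians 0.78 and 0.59, against 0.88 and 0.70 for the Nduf genes). The exception was Cox4i2, the isoform of cytochrome oxidase subunit 4 known from lung (-0.08 ± 0.07 against E11.5). These complexes include muscle isoforms with larger changes than any Nduf gene had, such as Cox8b (5.75 ± 0.34), Cox7a1 (4.87 ± 0.29) and Cox6a2 (3.76 ± 0.21). Of 13 genes of protein import, chaperones, porins and the citrate cycle, 9 rose and 0 fell against E11.5 (median 0.58). Citrate synthase, Cs, often used as a measure of mitochondrial content, rose by 1.12 ± 0.15, while Hspd1, the matrix chaperone Hsp60, had 0.02 and Tomm40, the import pore, 0.05 (adjusted p = 0.801 and 0.653).

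The E16.5 arrays fell into 2 sets by replicate number. The mean over the 43 genes was 10.19 to 10.44 at E11.5 and 10.36 to 10.60 at E12.5, and at E16.5 it was 11.21 to 11.40 in replicates 1 to 4 and 10.84 to 10.96 in replicates 5 to 8. All 8 E16.5 arrays lay above every fold array. In 28 of 43 genes each of replicates 1 to 4 was above each of replicates 5 to 8, and in 0 genes below (6.43% and 5.14% of all genes). The labels name no difference between these sets, which are known from all genes of the same arrays, and no test is given. Sarcomere markers (12.69 to 12.87 in replicates 1 to 4 and 12.34 to 12.60 in 5 to 8), the genes of complexes II to V (12.16 to 12.34 and 11.82 to 11.96) and cell cycle genes (9.06 to 9.29 and 9.43 to 9.75) divided at the same place. So did endothelial markers (8.79 to 9.10 in replicates 1 to 4 and 8.16 to 8.58 in 5 to 8) and red cell markers (7.54 to 8.08 and 8.19 to 8.82), while liver markers overlapped (9.67 to 11.65 and 10.37 to 11.54). The part of these transcripts in the Nduf difference between the sets was not tested. With replicates 1 to 4 left out, the median change of the Nduf genes was 0.60 against E11.5 and 0.42 against E12.5, with 33 and 27 genes higher and 0 lower in both. With replicates 5 to 8 left out the medians were 1.03 and 0.86.

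**Figure D4:**
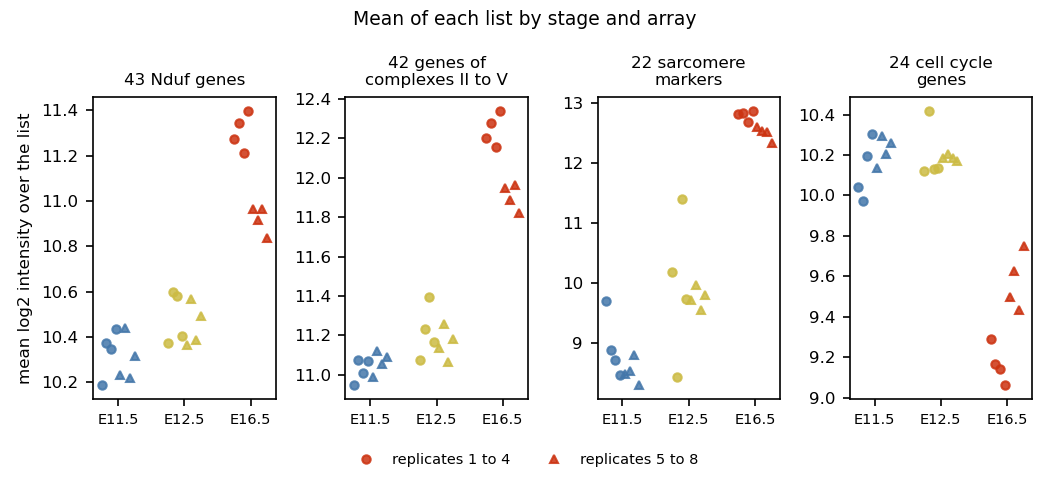
Mean log2 intensity over each list in each array, by stage, with circles for replicates 1 to 4 and triangles for replicates 5 to 8; each panel has its own scale. The Nduf genes reach 11.21 to 11.40 in E16.5 replicates 1 to 4 and 10.84 to 10.96 in replicates 5 to 8, all above the folds, and the 3 other lists separate the same sets.

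A pair of E12.5 arrays stood at the ends of the muscle marker range. Replicate 3 had the highest sarcomere mean of its stage (11.41) and replicate 2 the lowest (8.44). Their Nduf means of 10.58 and 10.60 were the highest of the 8, but replicate 6 was close to them (10.57). Replicate 2 also had the highest liver marker mean (11.89). Without both, the median Nduf change of E16.5 against E12.5 was 0.74, and 38 genes rose and 0 fell.

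For 5 members a dimmer probe set of the same gene was on the array. It was higher at E16.5 than at E11.5 by mean in each of them: 11.47 ± 0.38 and 10.58 ± 0.23 for Ndufa11, 8.91 ± 0.85 and 8.40 ± 0.80 for Ndufab1, 9.27 ± 0.22 and 8.72 ± 0.40 for Ndufb11, 9.21 ± 0.42 and 8.50 ± 0.54 for Ndufc1, and 7.77 ± 0.19 and 7.57 ± 0.22 for Ndufs3. For Ndufab1 and Ndufs3 the difference was no larger than the SD at E11.5. The dimmer probe sets were not tested alone. Probe sets shared by symbols belong to no single gene and were not tested. Those of Ndufb4 with Ndufb4b averaged 12.04 ± 0.34 and 10.29 ± 0.42 at E16.5, against 11.20 ± 0.22 and 9.45 ± 0.28 at E11.5, and that of Ndufs5 with Ndufs5-ps 11.72 ± 0.26 at E16.5, against 10.88 ± 0.29 at E11.5. Ndufb1, Ndufb4c and Ndufaf8 were not analysed here.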

How the data were processed

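Per the labels' protocols, RNA from laser-captured tissue was isolated with PicoPure columns and DNase, amplified with NuGEN WT-Ovation Pico and biotin-labelled. The authors deposited 1 value per probe set and array, log2 intensities as read from their range (2.56 to 14.12). Per the submitters' processing notes the tools were Affymetrix Expression Console 1.1, RMA and R 2.9.2, without their roles. The sources used here do not state if all 24 arrays entered 1 normalization. RMA forces arrays to a common distribution, so changes are relative to the other genes.

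Probe sets (24200) were named from GEO's platform annotation. The 20760 with 1 symbol were used, and the highest-mean one was kept for each gene. The test was limma 3.58.1 (R 4.3.3): a linear model with moderated variances over all 24 arrays, no covariates, two-sided, adjusted by Benjamini and Hochberg over 19351 genes, threshold 0.05. The fit was tested on simulated data. Arrays have no read depth, and their number limits the precision. Equal replicate numbers showed no sign of pairing the samples.

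Every Nduf gene may be named. Levels in every stage are given for the 8 largest rises at E16.5 against E11.5, the core subunits, the Ndufa4 pair and genes that did not rise. From other lists, up to 4 genes with the largest called changes and all complex I genes are named. Nrf1, Pprc1, Gabpa, Gabpb1, Yy1, Tfb1m, Hspd1, Tomm40, Cox4i2 and Hnf4a fall outside this rule and were chosen after their values were seen. Members and the 18 lists, of which 19 of 262 entries had no match, were chosen with earlier results of these data known, also the alternatives. Those were a fit of 2 stages, a replicate block, other scalings, a filter on dim genes, the mean over probe sets, other variance and weight settings, and arrays left out. Summaries were made with Python 3.11.15 and pandas 2.3.3.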

Additional observations from a re-analysis of the deposited data

Results flagged for a closer look

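For each gene and stage, the highest and the lowest of the 8 arrays were set against the others by Dixon's ratio, the distance to the next array over the whole range, at its 95% critical value. About 1 in 20 such groups passes by chance, and 8 arrays passed among the 43 genes at 3 stages. At E11.5 these were Ndufa10 in replicate 1 (10.04, next 10.96), Ndufa7 in replicate 5 (10.97, next 10.01), Ndufb2 in replicate 5 (8.87, next 9.33), Ndufs3 in replicate 5 (9.88, next 10.44) and Ndufv3 in replicate 2 (10.86, next 10.44). At E12.5 they were Ndufa4l2 in replicate 2 (7.70, next 7.15), Ndufaf4 in replicate 6 (10.41, next 10.11) and Ndufb5 in replicate 1 (10.93, next 11.38). Of the 8, 3 came from E11.5 replicate 5 and 0 from E16.5.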

How the results depend on the processing

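No called change reversed its direction under any alternative tried. Leaving out each array in turn gave 40 to 41 Nduf genes higher and 0 to 1 lower at E16.5 against E11.5 (median change 0.84 to 0.92), 37 to 39 higher and 0 to 2 lower against E12.5 (0.65 to 0.76), and 0 in both directions at E12.5 against E11.5 (0.13 to 0.19). The 1 fall against E12.5 became 2 with only the 2 stages compared and with replicate number as a block, and 0 after centring arrays on the 75th percentile, without E12.5 replicates 2 and 3, and without E16.5 replicates 1 to 4. The 0 falls against E11.5 became 1 (Ndufaf2) after quantile normalization and without E16.5 replicates 5 to 8. The median change was 0.42 against E12.5 and 0.60 against E11.5 without E16.5 replicates 1 to 4, and 0.86 and 1.03 without replicates 5 to 8. The other settings gave 37 to 40 rises against E12.5 and 40 against E11.5. Of the 39 calls against E12.5, 37 held with each array left out in turn and 27 under all other alternatives. Of the 40 genes higher against E11.5, 33 passed under all alternatives run, and the other 7 (Ndufa4l2, Ndufa9, Ndufaf1, Ndufaf3, Ndufaf6, Ndufc1 and Ndufs5) lost their call without E16.5 replicates 1 to 4, where their changes were 0.31 to 0.72, against 0.82 to 1.42 without replicates 5 to 8. Equal replicate numbers did not deviate together (correlations of deviations -0.28 to 0.09), so no pairing by number was seen. The cause of these differences was not tested. No Nduf gene lay below the lower quartile of an E16.5 array.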
